A study of Homo sapiens with 4 samples.

Results

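The skipped exons of 9 genes that encode nonsense-mediated decay factors were examined: UPF1, UPF2, UPF3A, UPF3B, SMG1, SMG5, SMG6, MAGOHB and CASC3. An event belonged to the set when its skipped exon shared a boundary with an exon of one of these genes in GENCODE release 29. The rule found 22 skipped exons in 25 events of 6 genes, out of 38121 skipped exons in 44910 events. UPF3A held 11 of these exons, MAGOHB and SMG5 3 each, SMG1 and UPF3B 2 each, and UPF1 1. The events used here held none for UPF2, SMG6 and CASC3, and these 3 genes were not analysed here.

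The cells were MDA-LM2, a lung-metastatic derivative of a human breast cancer line, and total RNA was taken 48 h after transfection of small interfering RNAs. Per the labels, 2 libraries came from cells in which SNRPB2 was silenced (siSNRPB2) and 2 from control transfections (siCtrl), with 2 independent siRNAs that lowered SNRPB2 by over 95% in quantitative PCR. SNRPB2 encodes a subunit of the spliceosomal U2 particle, U2B'', and its own level was not analysed here because no event used here lay in the gene. The files give 1 value per event and group in this one cell line, so nothing here has a replicate check. The labels do not say which siRNA went into which siSNRPB2 library.

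Nonsense-mediated decay removes messenger RNAs on which a ribosome stops well upstream of an exon junction. Splicing leaves an exon junction complex upstream of each junction, and MAGOH or its near-identical paralogue MAGOHB is a core subunit of that complex. UPF3A and UPF3B link the complex to UPF2 and to the helicase UPF1, the kinase SMG1 phosphorylates UPF1, and SMG5 and SMG6 bind phosphorylated UPF1 and start degradation. An exon that brings in an early stop codon, often called a poison exon, turns a transcript into a target of the same pathway.

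Inclusion is given as ψ, with its deposited interval. It is the deposited estimate of the fraction with the exon among the event's forms with and without it. It is not a fraction of all transcripts of the gene. Reads that fit only the form with the exon, or only the form without it, are called informative here. Testing an exon took 20 or more of them in both files. A call took a deposited Bayes factor of 10 or more together with a ψ difference (siSNRPB2 minus siCtrl) of 0.1 or more in size. The Bayes factor weighs the evidence that ψ differed against the evidence that it did not, and it measures the reads of the files, not the spread between cultures.

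Of the 22 exons, 21 were tested, 2 were called higher and 1 was called lower in siSNRPB2. Over all 18678 tested exons of the series, 7.13% were called higher and 7.61% lower, and the 9.52% and 4.76% of the decay factors' exons lay near these shares. Both higher calls were overlapping forms of 1 MAGOHB exon that share most of their reads, and the lower call was an SMG5 exon. A further exon, of UPF3A, had a Bayes factor above 10 with a smaller difference, as had 4.65% of all tested exons. The deposited intervals of these 4 exons did not overlap between the files, as for 20.8% of all tested exons, and those of the other 17 met or overlapped.

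Most of these exons differed little between the files. The ψ difference was at most 0.05 in size for 15 of the 21 tested exons, against 64.1% of all tested exons, and exactly 0 for 7. The median difference was 0 for the decay factors and 0 for all tested exons. Near-constant exons, at 0.95 or more in siSNRPB2 and in siCtrl, numbered 7, and 3 exons lay at 0.05 or below in both. The decay factors were deeply covered, with a median of 332 informative reads per exon in siSNRPB2 and 417 in siCtrl, against 137 and 158 over all tested exons. Overlapping forms of UPF3A exon 7 share most of their reads. Each of them counts as an exon in the 15, in both counts of 7 and in these medians.

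**Figure D1:**
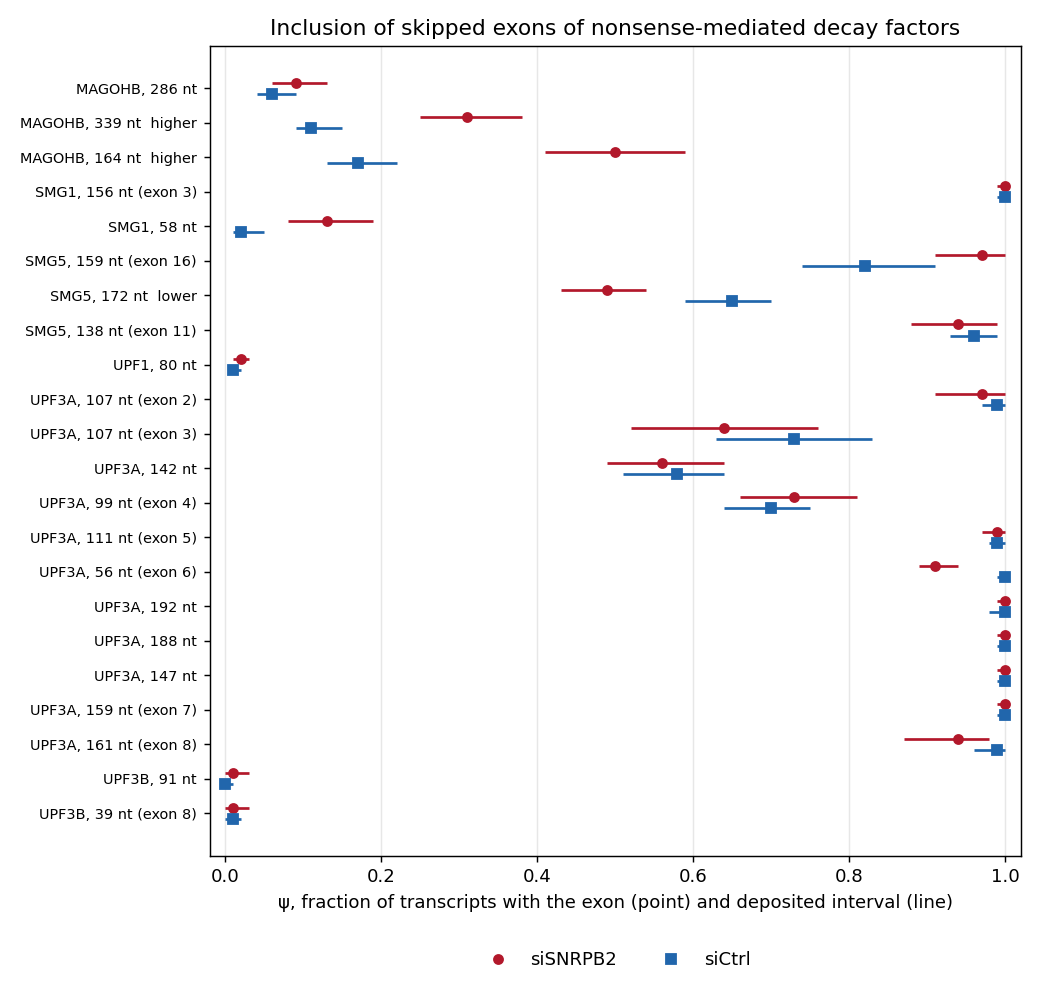
Inclusion level ψ of the 22 skipped exons (rows, with gene and length). The x axis is the fraction with the exon among the event's forms with and without it. Points show the deposited estimate and lines the deposited interval, siSNRPB2 in red circles and siCtrl in blue squares. The MAGOHB exons of 164 and 339 nt lie to the right of their controls, the SMG5 exon of 172 nt and the UPF3A exon of 56 nt to the left, and most others cover each other.

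MAGOHB, the exon junction complex subunit, showed more of a poison exon in siSNRPB2. The exon lies between exons 1 and 2 of the 5 exons of the principal transcript, in forms of 164 nt (chr12:10612815-10612978, minus strand, hg38) and 339 nt (chr12:10612640-10612978) that share their 5′ end. GENCODE lists both only in transcripts of the class nonsense_mediated_decay. Read in frame from the start codon of the principal transcript, each form ends after 81 codons at a TGA inside the exon, while the form without it runs to the annotated stop after 148 codons. The first 152 nt of the exon, common to both forms, are shown because they carry that stop codon, in capitals, 5′ to 3′ from the GENCODE transcript at chr12:10612827-10612978.
MAGOHB: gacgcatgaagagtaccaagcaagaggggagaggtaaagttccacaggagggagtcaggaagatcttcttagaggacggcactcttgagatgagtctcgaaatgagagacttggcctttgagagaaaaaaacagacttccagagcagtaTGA

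For the 164-nt form, ψ was 0.50 in siSNRPB2 (interval 0.41 to 0.59) and 0.17 in siCtrl (0.13 to 0.22). The siSNRPB2 file held 114 reads with the exon only and 25 without it only, and the siCtrl file 51 and 49. The balance of the reads thus moved on both sides, with more that fit only the form with the exon and fewer that fit only the other form. Reads with the exon made up 82% of informative reads in siSNRPB2 (exact binomial 95% interval 74.6 to 88%) and 51% in siCtrl (40.8 to 61.1%). These intervals cover counting error only. The authors' deposited table gives a ψ difference of 0.33 and a Bayes factor of 1e+12, the largest value in that table, and the deposited intervals allow a difference between 0.19 and 0.46.

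For the 339-nt form, ψ was 0.31 in siSNRPB2 (0.25 to 0.38) and 0.11 in siCtrl (0.09 to 0.15), with 117 and 62 reads with the exon only and the same 25 and 49 reads without it. The authors' deposited table gives a difference of 0.20 with a Bayes factor of 2.28e+10. The 2 forms differ by 175 nt at the 3′ end but by only 3 inclusion-only reads in siSNRPB2 and 11 in siCtrl, so their values describe one and the same body of reads. The stop codon lies 265 nt upstream of the last exon junction in the shorter form and 440 nt upstream in the longer, both past the 50 nt that the usual rule for decay targets asks.

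A second poison exon of MAGOHB, of 286 nt (chr12:10609098-10609383), lies between exons 3 and 4 and is likewise listed only in transcripts annotated as decay targets. Its frame ends after 90 codons, inside the exon and 360 nt upstream of the last junction. ψ was 0.09 in siSNRPB2 (0.06 to 0.13) and 0.06 in siCtrl (0.04 to 0.09), from 27 reads with and 59 without the exon against 30 and 116. The share of reads with the exon was 31.4% (21.8 to 42.3%) and 20.5% (14.3 to 28%), and these intervals overlap. The authors' deposited table gives a difference of 0.03 and a Bayes factor of 0.14, so this exon was not called. Of the 2265 tested exons in transcripts annotated as decay targets and in no protein-coding transcript, 6.8% were called higher and 5.96% lower.

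**Figure D2:**
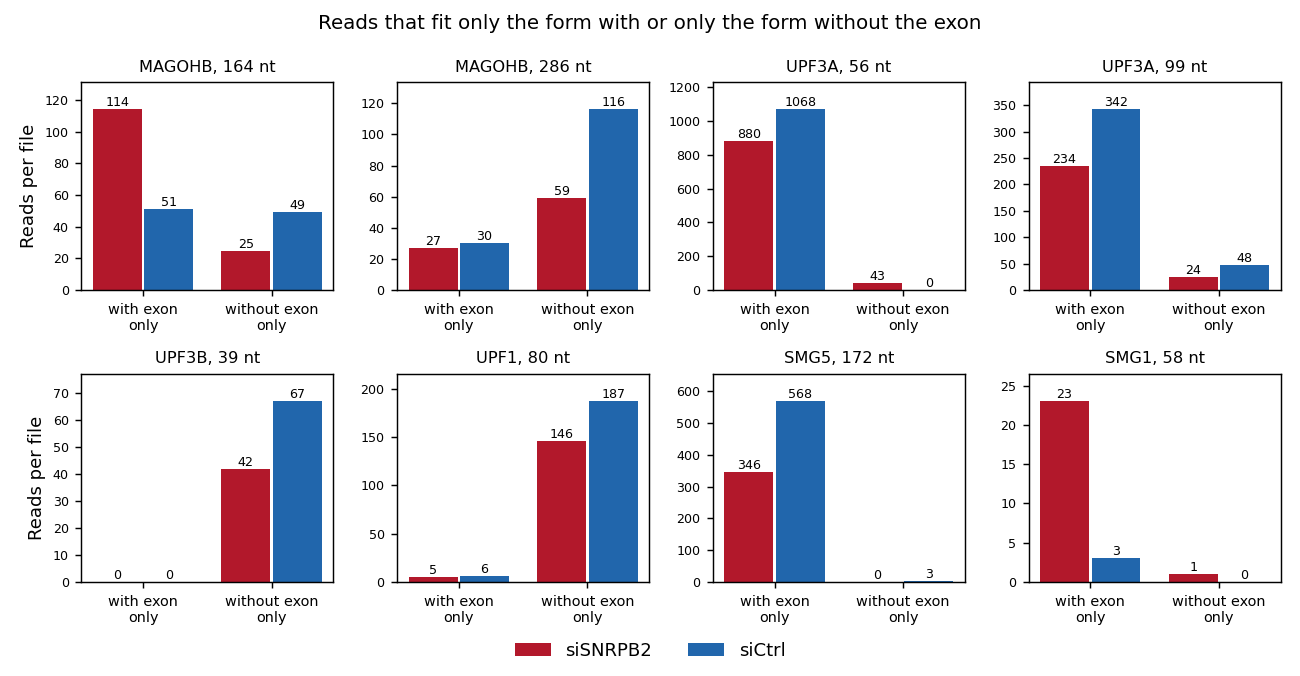
Reads per file (y axis, from 0, with its own scale in each panel) that fit only the form with the exon or only the form without it, for 8 skipped exons of the decay factors, siSNRPB2 in red and siCtrl in blue. For the MAGOHB exon of 164 nt both bars change, 114 against 51 with it and 25 against 49 without it, and for the UPF3A exon of 56 nt reads without it stand at 43 in siSNRPB2 and 0 in siCtrl.

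UPF3A, an adapter between the exon junction complex and UPF2, had 11 tested exons and no call. Its exon 6 of 10 nearly met the rule. This 56-nt exon (chr13:114291489-114291544, plus strand, hg38) is coding, and its length is not a multiple of 3. It is shown with the start of exon 7 (chr13:114291634-114291755), where the reading frame ends at a TAA, in capitals, when exon 6 is left out.
UPF3A exon 6: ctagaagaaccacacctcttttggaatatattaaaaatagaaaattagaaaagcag
UPF3A start of exon 7: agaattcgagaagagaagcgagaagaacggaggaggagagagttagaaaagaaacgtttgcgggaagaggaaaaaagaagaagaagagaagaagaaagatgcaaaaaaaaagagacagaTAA

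In siSNRPB2 43 reads joined exon 5 directly to exon 7 and 880 reads fitted only the form with exon 6. In siCtrl these numbers were 0 and 1068. Reads that skip exon 6 were thus seen in one file and not in the other, at similar depth. ψ was 0.91 in siSNRPB2 (0.89 to 0.94) and 1.00 in siCtrl (0.99 to 1.00), and reads with the exon made up 95.3% (93.8 to 96.6%) and 100% (99.7 to 100%) of informative reads. The authors' deposited table gives a difference of -0.09 and a Bayes factor of 1e+12, and the deposited intervals allow -0.11 to -0.05.

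Leaving out exon 6 gives a frame of 250 codons that ends 493 nt upstream of the last junction, against 476 codons with it. Of the 3843 tested exons with ψ of at least 0.99 in siCtrl, 1.93% were lower by at least 0.09 with a Bayes factor of at least 10, a limit set after the value of this exon was seen. The processed pseudogenes UPF3AP1, UPF3AP2 and UPF3AP3 hold every 30-nt piece of exon 6, and reads from them cannot be told apart from UPF3A reads with the exon. None of their transcripts holds the junction of exon 5 to exon 7.

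Exon 4 of UPF3A was read both with and without the exon in each group. It has a form of 99 nt (chr13:114286302-114286400), which keeps the frame at 476 codons with it and 443 without it, and a form of 142 nt (chr13:114286259-114286400) that starts 43 nt earlier. The longer form is shown with that extension in capitals. In this form the frame ends after 187 codons, at a stop codon that starts at the end of the exon and runs into the next exon.
UPF3A exon 4, 142 nt: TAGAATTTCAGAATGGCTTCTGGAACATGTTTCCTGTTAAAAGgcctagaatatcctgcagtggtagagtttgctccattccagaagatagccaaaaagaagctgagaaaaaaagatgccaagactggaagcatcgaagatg

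For the 99-nt form ψ was 0.73 in siSNRPB2 (0.66 to 0.81) and 0.70 in siCtrl (0.64 to 0.75), with 234 and 342 reads with the exon and 24 and 48 without it. For the 142-nt form ψ was 0.56 (0.49 to 0.64) and 0.58 (0.51 to 0.64), with 200 and 318 reads with the exon. The intervals overlap between the groups for each form. The 2 forms share 99 nt, and the shorter had only 34 more inclusion-only reads in siSNRPB2 and 24 more in siCtrl, so the reads do not tell how far the longer form was used. Each form is estimated against the same skipped form, so the values of the 2 forms do not add up to 1. The junction that skips exon 4 is also found in UPF3AP1 and UPF3AP2, so the skipping reads may come in part from these pseudogenes, and their part was not tested.

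None of the remaining exons of UPF3A was called. Exon 2 (107 nt) had ψ of 0.97 and 0.99, exon 5 (111 nt) 0.99 and 0.99, and exon 8 (161 nt) 0.94 (0.87 to 0.98) and 0.99 (0.96 to 1.00), with siSNRPB2 first. Exon 3, also of 107 nt, had ψ of 0.64 (0.52 to 0.76) and 0.73 (0.63 to 0.83) on its deepest event, with 11 and 9 skipping reads, and 0.96 and 0.92 on another event with other flanks and no skipping read. All intervals overlap within each exon and event, and the 2 events of exon 3 differed more from each other than the groups did. Exon 7 was listed in 4 forms, of 147, 159, 188 and 192 nt, whose events run from exon 5 to exon 8 and so leave exon 6 out of both isoforms. All 4 had ψ of 1.00 in both files, from 901 to 1234 reads with the exon and 0 without it. The 188-nt and 192-nt forms had identical reads and the 159-nt form 14 and 77 fewer, so these values rest largely on shared reads and do not show that all 4 forms were used. The 192-nt and 188-nt forms held the most informative reads of UPF3A, 1229 in siSNRPB2 and 1234 in siCtrl, and the deposited intervals of the 192-nt form allow a difference of -0.01 to 0.02. UPF3A pseudogenes hold between 77.3% and 100% of the 30-nt pieces of exons 2, 3, 5, 8 and the 159-nt form of exon 7.

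UPF3B, the X-linked counterpart of UPF3A, left out its exon 8 almost entirely in both groups. This 39-nt exon (chrX:119840646-119840684, minus strand, hg38) is in frame, with 483 codons with it and 470 without it, and is shown because it is annotated as coding but was hardly used in these cells.
UPF3B exon 8: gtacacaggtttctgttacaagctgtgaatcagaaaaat

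No read fitted only the form with the exon, and 42 reads in siSNRPB2 and 67 in siCtrl fitted only the form without it. The share of reads with the exon was 0%, with an exact binomial 95% upper bound of 8.41% in siSNRPB2 and 5.36% in siCtrl. The 91-nt form of the same exon (chrX:119840594-119840684), which would end the frame after 292 codons, had the same reads, with ψ of 0.01 and 0.00. The deposited intervals of that form allow a difference of -0.01 to 0.03. A lower inclusion in siSNRPB2 than in siCtrl was not detectable from such a start.

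UPF1, the central helicase, had 1 exon, of 80 nt (chr19:18851050-18851129, plus strand), listed in 1 transcript of the class processed_transcript. With it the frame would end after 346 codons in a later exon, against 1118 codons without it. It was almost absent in both files, with 5 reads with and 146 without it in siSNRPB2 and 6 and 187 in siCtrl. ψ was 0.02 (0.01 to 0.03) and 0.01 (0.01 to 0.02). The share of reads with the exon was 3.31% and 3.11%, and the deposited intervals allow a difference of -0.01 to 0.02.

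SMG1, the kinase that phosphorylates UPF1, had 1 tested exon, exon 3 of 63 (156 nt, chr16:18896052-18896207, minus strand). ψ was 1.00 in both files (0.99 to 1.00), from 1560 reads with the exon in siSNRPB2 and 1699 in siCtrl and 0 without it. Pseudogenes of the SMG1P group hold every 30-nt piece of this exon, so these reads cannot be credited to SMG1 alone.

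The other SMG1 exon, of 58 nt (chr16:18899987-18900044), lies between exons 1 and 2 and was not tested, with 3 informative reads in siCtrl. Its 3 annotated transcripts are protein coding, and the last 14 nt of the exon hold their start codon, shown in capitals (chr16:18899987-18900000, minus strand). Read from the start codon of the principal transcript, the frame ends inside the exon after 33 codons.
SMG1: ATGcgatttttgag

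The siSNRPB2 file held 23 reads with this exon and 1 without it, and the siCtrl file 3 and 0. Reads with the exon were few in both files and more numerous in siSNRPB2, beside 1953 and 1997 reads that fit both forms. ψ was 0.13 (0.08 to 0.19) and 0.02 (0.01 to 0.05), and the authors' deposited table gives a difference of 0.11 and a Bayes factor of 14905.49. The deposited intervals allow a difference of 0.03 to 0.18. The share of inclusion-only reads among informative reads goes the other way, at 95.8% (78.9 to 99.9%) and 100% (29.2 to 100%), since almost no read tells the skipped form. The junction that skips the exon is also found in 4 SMG1 pseudogenes.

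SMG5, which binds phosphorylated UPF1, held the lower call. Exon 11 of 22 has a coding form of 138 nt (chr1:156266541-156266678, minus strand) and a form of 172 nt (chr1:156266507-156266678) with 34 nt more at its 3′ end, listed in 1 transcript of the class processed_transcript. The longer form is shown with the added bases in capitals. They shift the frame, which then ends after 430 codons in a later exon, 1708 nt upstream of the last junction.
SMG5 exon 11, 172 nt: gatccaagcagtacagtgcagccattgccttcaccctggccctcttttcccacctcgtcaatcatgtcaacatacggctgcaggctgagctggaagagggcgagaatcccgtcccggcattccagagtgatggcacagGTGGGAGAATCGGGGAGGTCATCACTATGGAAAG

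For the 172-nt form ψ was 0.49 in siSNRPB2 (0.43 to 0.54) and 0.65 in siCtrl (0.59 to 0.70). The siSNRPB2 file held 346 reads with the exon and 0 without it, and the siCtrl file 568 and 3. Almost no read skipped the exon in either group, so its ψ rests on reads with the exon set against the 3126 and 3817 reads that fit both forms. The authors' deposited table gives a difference of -0.16 and a Bayes factor of 9100.46, and the deposited intervals allow -0.27 to -0.05. By informative reads alone the inclusion share was 100% (98.9 to 100%) and 99.5% (98.5 to 99.9%), a difference of 0.005 in the other direction. The call therefore depends on how reads of the flanking exons are weighed.

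The coding form of 138 nt had ψ of 0.94 (0.88 to 0.99) and 0.96 (0.93 to 0.99), with 550 and 810 reads with the exon. It held 1.59 times the inclusion-only reads of the longer form in siSNRPB2 and 1.43 times in siCtrl, a gap of 204 and 242 reads. Both forms share the reads inside their common 138 nt, so the values are not independent.

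Exon 16 of SMG5 (159 nt, chr1:156259005-156259163), in frame, had ψ of 0.97 (0.91 to 1.00) in siSNRPB2 and 0.82 (0.74 to 0.91) in siCtrl, again with no skipping read in either file. The siSNRPB2 file held 774 reads with this exon and the siCtrl file 660. The authors' deposited table gives a difference of 0.15 and a Bayes factor of 5.39, which misses the rule, and the deposited intervals allow 0 to 0.26. Exons without a skipping read in either file were common: 8 of the 22 decay-factor exons and 51.1% of all tested exons.

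**Figure D3:**
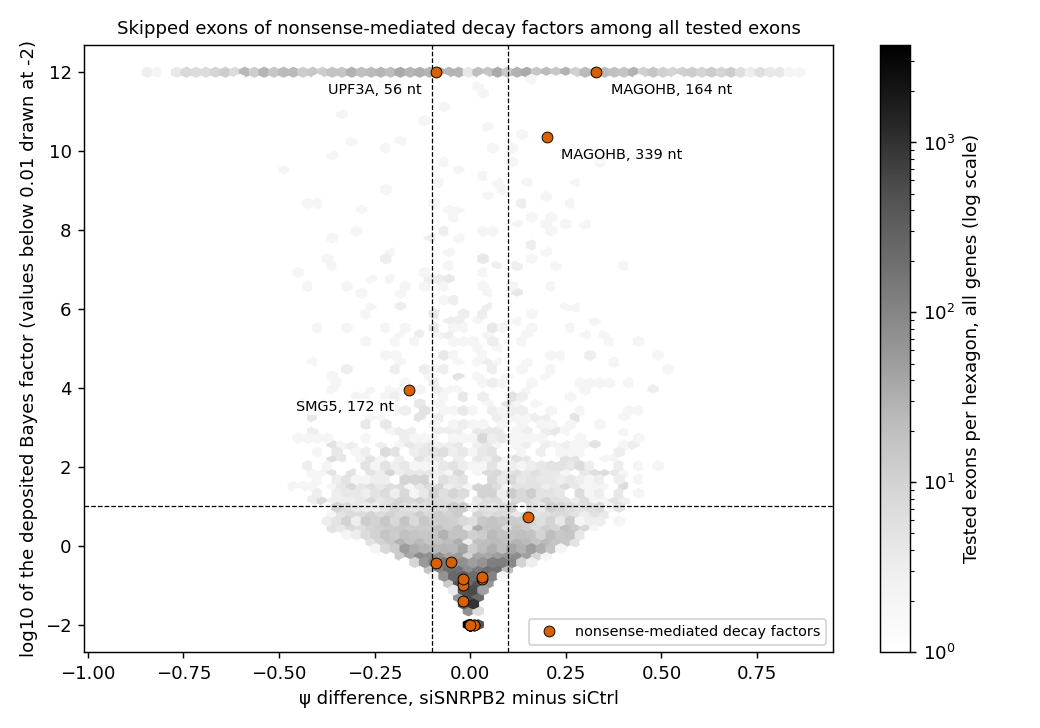
The ψ difference (x axis, siSNRPB2 minus siCtrl) against the log10 of the deposited Bayes factor (y axis), hexagons shaded by the number of all 18678 tested exons on a log scale and orange points for the 21 tested exons of the decay factors. Dashed lines mark a Bayes factor of 10 and a difference of 0.1 in either direction; 3 orange points lie beyond both, and the UPF3A exon of 56 nt lies just inside the line at a difference of -0.09.

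The reading frame could be followed for 21 of the 22 exons. A stop codon other than the annotated one ended the frame only with the exon for 8 exons, only without it for 4, in both forms for 3 and in none for 6. Among the 12 exons of which 1 form alone has such a stop, the deposited difference goes toward that form for 10 and away from it for 2, the SMG5 exon of 172 nt and the UPF3A exon of 142 nt. Of the 10, the 91-nt UPF3B exon had no read with it, and UPF3A exon 2 no skipping read, in either file. UPF3A exon 3 is counted by its deepest event, with a ψ difference of -0.09, while its other event stood at 0.04. For 6 of the 10 the deposited intervals overlap, and of the 2 that go away those of the SMG5 exon do not. The other 4 of the 10 are the MAGOHB exons of 164 and 339 nt, which rest largely on the same reads, the UPF3A exon of 56 nt, which was not called, and the SMG1 exon of 58 nt, which was not tested. The annotated transcripts with that SMG1 exon are protein coding and have their own start codon in it. Several of the 12, such as the UPF1 exon and the 91-nt UPF3B exon, had ψ so near 0 or 1 in siCtrl that little room was left for the other direction. No count of differences toward or away from an early stop was made over all exons, so the 10 and 2 have no share to be read against. Whatever the frame, the deposited intervals did not overlap for 20.8% of all tested exons. Of the 22 exons, 12 have a length that is not a multiple of 3.

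**Figure D4:**
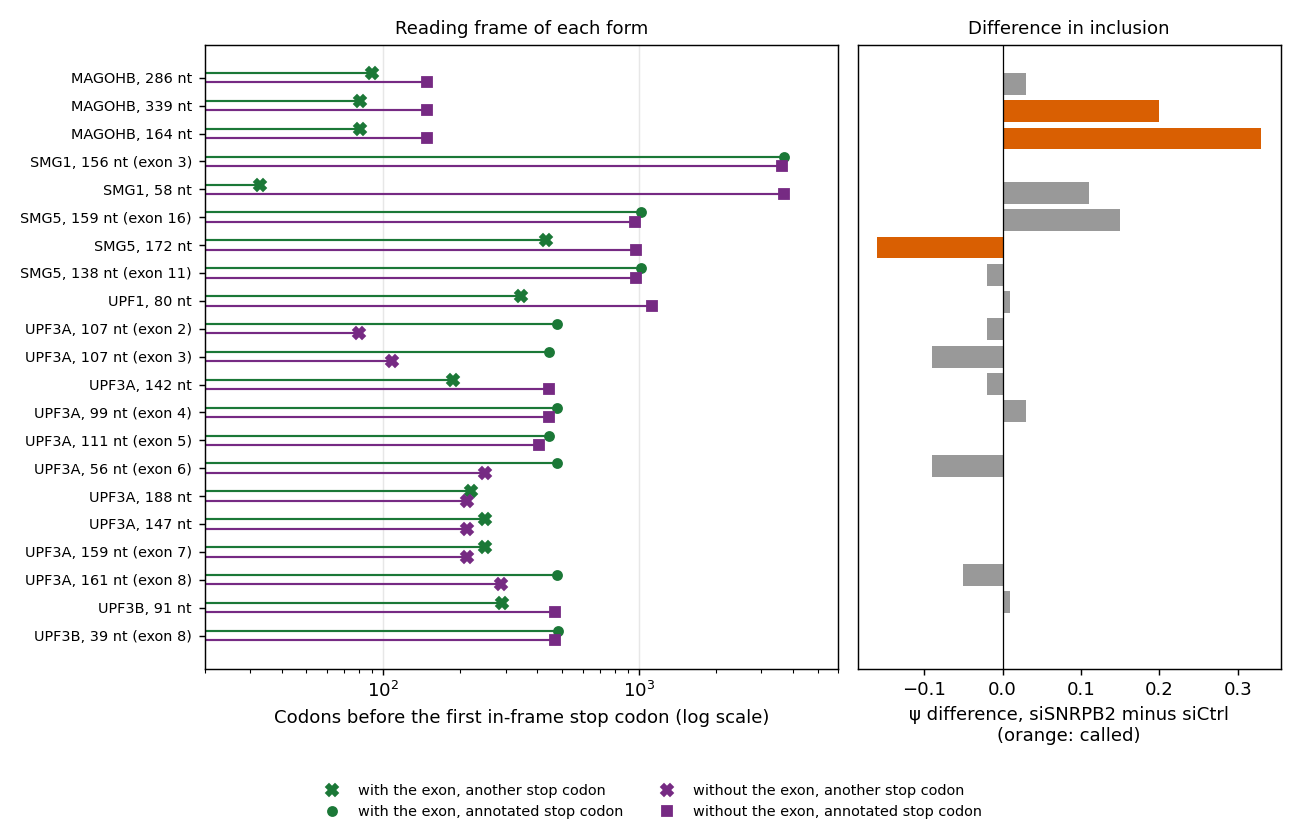
Left, codons before the first in-frame stop codon (x axis, log scale) for each exon (rows) with and without the exon, crosses for a stop other than the annotated one. Right, the ψ difference of the same 21 exons from 0, called exons in orange; the 192-nt UPF3A form is left out because not all of its bases lie in an annotated transcript.

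The level of each factor was read from the reads that fit either isoform on the deepest event of a gene, scaled as RPM of the file's reads over 1 event per gene. The scale takes no account of gene length, so it compares the files within a gene and not genes with each other. Differences are given as log2 ratios after adding a pseudocount of 1 read, and intervals cover counting error only. UPF3B stood at 28.1 RPM in siSNRPB2 and 41.6 in siCtrl, a log2 difference of -0.57 (-0.74 to -0.40). UPF1 stood at 50.2 and 63.9 RPM, a log2 difference of -0.35 (-0.47 to -0.22). SMG5 stood at 225 and 251 RPM, a log2 difference of -0.16 (-0.22 to -0.09).

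These 3 genes had fewer reads in siSNRPB2, but their places among all 10458 genes were ordinary, at percentiles 12.1 for UPF3B, 20.8 for UPF1 and 33.7 for SMG5. MAGOHB stood at 17.8 and 17.6 RPM, a log2 difference of 0.02 (-0.21 to 0.24). UPF3A stood at 144 and 142 RPM and SMG1 at 195 and 186 RPM, log2 differences of 0.02 and 0.07. The SMG1 level was read on the event of its 156-nt exon and the UPF3A level on that of its 161-nt exon. Pseudogenes hold every compared piece of this SMG1 exon and 77.3% of the pieces of this UPF3A exon. Both levels, and the medians that include them, may thus hold pseudogene reads, and their part was not tested. The MAGOHB level was read on the event of the 339-nt poison exon itself, and 117 of its 291 reads in siSNRPB2 and 62 of its 325 reads in siCtrl fitted only the form with that exon. Its other reads, 174 and 263, stood at 10.7 and 14.3 RPM, a log2 difference of -0.42 (-0.69 to -0.14). They include the 25 and 49 reads without the exon that also enter its ψ. The same measure gave -0.57 for UPF3B, -0.35 for UPF1, -0.11 for SMG5, 0.08 for SMG1 and 0.10 for UPF3A, and it was not computed over all genes. With all reads that fit either isoform, the median log2 difference was -0.07 over the 6 genes, 3 above and 3 below 0. It was 0.01 over all genes, whose quartiles were -0.27 and 0.30.

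Reads on an event that fit neither isoform can come from introns or from other splice forms. They made up 69.4% of the reads on the UPF3B event in siSNRPB2 and 60.3% in siCtrl, and 31% and 24.5% for UPF1. For SMG5 the share was 8.33% and 10.3%, and for MAGOHB 78.6% and 77.9%. UPF3A had 35.4% and 35.1%, and SMG1 37.7% and 37.1%. The isoform reads stand in the denominator of these shares, so a gene with fewer isoform reads in a file tends to a higher share there. The log2 ratio of these reads to isoform reads differed by a median of 0.05 over the 6 genes, against 0.15 over all genes.

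**Figure D5:**
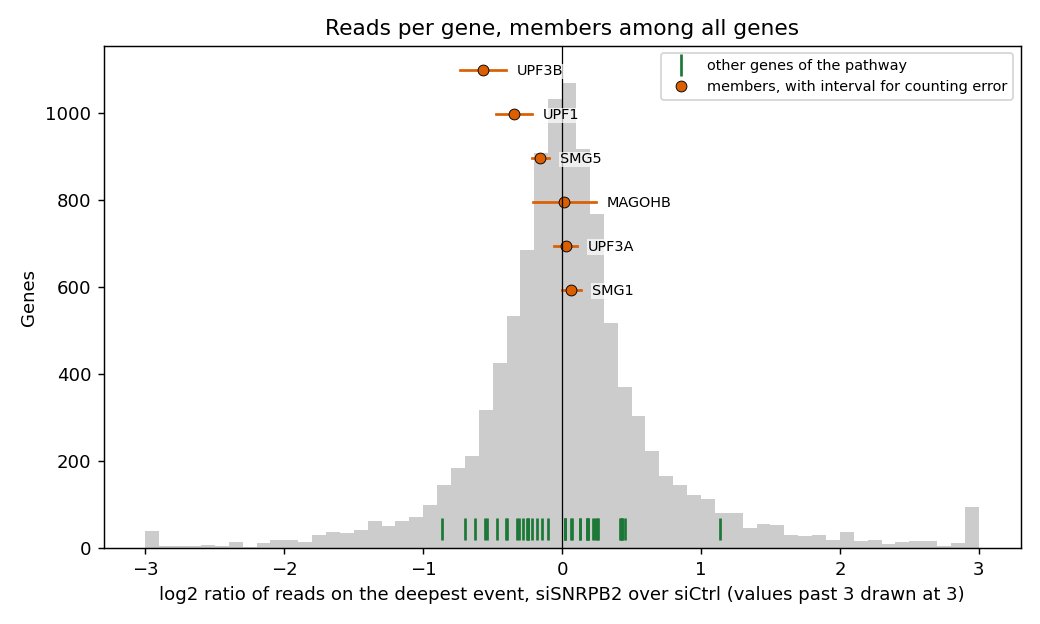
Histogram of the log2 ratio of reads per gene (x axis, siSNRPB2 over siCtrl, values beyond 3 drawn at 3; y axis, number of genes) with the 6 decay factors as orange points with their counting-error intervals, their height being for legibility only, and other genes of the pathway as green ticks. UPF3B at -0.57 and UPF1 at -0.35 lie left of 0 within the body of all genes.

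Around these factors, a list of 47 other genes of the pathway (exon junction complex, cap-binding and release factors, decapping, deadenylation and exosome) held 88 tested exons in 34 genes. Of these 8 were called higher (9.09%) and 6 lower (6.82%), in 11 genes, near the shares over all exons, with a median ψ difference of 0. ACIN1, a factor peripheral to the exon junction complex, had 2 exons higher, of 62 nt (ψ of 0.45 in siSNRPB2 and 0.29 in siCtrl) and 120 nt (0.24 and 0.13). CNOT1, the scaffold of the deadenylase complex, had a 128-nt exon with inclusion-only reads in siSNRPB2 and none in siCtrl, with 29 reads with it and 26 without it against 0 and 32, and ψ of 0.15 and 0.00.

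CNOT8, a deadenylase subunit, had an exon of 194 nt at 0.46 and 0.32, and RUVBL2, an ATPase that acts with SMG1, one of 130 nt at 0.64 and 0.43, both without any skipping read. DCP1A, a decapping cofactor, had an exon of 114 nt at 0.87 and 0.51. PABPC4, a poly(A)-binding protein, had calls in both directions: a 99-nt exon at 0.14 and 0.00, with 40 reads with and 43 without it against 0 and 88, and overlapping forms of 88 nt (0.51 and 0.96) and 73 nt (0.44 and 0.97) that were lower. The lower PABPC4 calls also had no skipping read in either file.

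The remaining lower calls were in EDC3, a decapping enhancer (89 nt, 0.01 and 0.11, from 1 read with and 71 without the exon against 26 and 70), PPP2R1A, a phosphatase scaffold (125 nt, 0.01 and 0.13), PTBP1, an RNA-binding protein that shields some transcripts from decay (57 nt, 0.23 and 0.34), and TELO2, a chaperone of SMG1 (117 nt, 0.63 and 0.97). The TELO2 exon had no skipping read in either file. For the PTBP1 exon, reads with it made up 95.8% of informative reads in siSNRPB2 and 96.2% in siCtrl. By informative reads alone these 2 exons thus hardly differed. Reads per gene of 39 genes of this list had a median log2 difference of 0.02.

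Of the whole series, the siSNRPB2 file listed 42670 events and the siCtrl file 42159, with 93580246 and 100579230 reads counted on them. Of these reads 61.2% and 59.1% fitted neither isoform of their event, and overlapping events can share reads. Markers of a mesenchymal and basal breast line were read on events of 5 of 8 genes, with summed levels of 4550 RPM in siSNRPB2 and 5090 in siCtrl. Luminal and epithelial markers were read for 3 of 8 genes (ESR1, GATA3 and KRT8), at 704 and 765 RPM, and blood and endothelial markers for 3 of 6, at 5.7 and 4.18 RPM. The scale takes no account of gene length and each list rests on few genes, so the sums do not compare the lists with each other. No marker with an event was at 0 in these files. The part of such differences in the values of the decay factors was not tested.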

How the data were processed

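The study sequenced 4 libraries of MDA-LM2 total RNA, 2 in each group. The submitters' processing notes name STAR 2.7 and hg38. The deposited ψ is a fraction estimated with MISO, per the file headers, with an interval and the number of reads in each class of fit. The authors' deposited table of the comparison gives the ψ difference, a signed score, and the Bayes factor, a ratio. The MISO version, event annotation, interval level and any merging of libraries were not given in the sources used here.

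From these values, skipped exons were matched by position to GENCODE 29 exons. For each exon the event with the most informative reads was kept, and the call rule was applied over all exons. Shares of reads have exact binomial 95% intervals, and these and the depth limits cover counting error only. Reading frames came from GENCODE transcripts, starting at the principal start codon. 30-nt pieces were searched in transcripts of other genes. Genes had at least 20 reads on average. No test across samples was possible with 1 value per group.

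Every called member exon, every member exon whose Bayes factor reached 10, and the best-covered exon of each gene are named with full values, and the called exons of the 47 other genes are named with ψ, except 1 that is not reported here. The members and lists were chosen with earlier results of these data known. Scripts were tested on simulated data. Alternatives changed the thresholds, read minimums, estimator and scaling 1 at a time. Events without a shared exon boundary were left out. The tools were pandas 2.3.3 with numpy 2.4.6 on Python 3.11.15, scipy 1.17.1 for intervals and matplotlib 3.10.9 for figures.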

Additional observations from a re-analysis of the deposited data

How the results depend on the processing

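No paired analysis was possible because the files hold 1 value per event and group, and for the same reason no library could be left out. The MAGOHB exons of 164 and 339 nt were called higher under all 8 alternatives. Among the decay factors the count of lower calls was 0 with a ψ difference of at least 0.2, 2 with at least 0.05, which adds the UPF3A exon of 56 nt, and 0 with at least 5 exclusion-only reads. The ψ difference of the SMG5 exon of 172 nt reversed from -0.16 to 0.005 by the share of inclusion-only reads and to 0.010 when these are halved. The difference of the MAGOHB exon of 339 nt was 0.313 by the share with inclusion-only reads halved, past the 0.29 that its deposited intervals allow. That of the UPF3A exon of 56 nt was -0.047 by the share of inclusion-only reads. The median log2 ratio of gene reads reversed from -0.07 to 0.02 over the 3 genes with at least 1000 reads. With reads summed over all events, this ratio moved from -0.16 to -0.09 for SMG5 and from 0.02 to -0.09 for UPF3A. The SMG1 exon of 58 nt was called higher with no read minimum, and by the share of inclusion-only reads its difference was -0.042, or -0.080 when halved. Among other genes of the pathway 5 exons were higher at a Bayes factor of at least 100, 3 were lower and 3 higher at a difference of at least 0.2, and 3 were lower with at least 5 exclusion-only reads. Over all genes 884 were higher with at least 50 informative reads, 2554 were lower and 2490 higher with no minimum, and 806 were lower and 734 higher with at least 5 exclusion-only reads (10% and 9.13% of 8037). Except where an alternative itself changes the number of exons or genes, the cause was not tested. Few or no reads mark one of the 2 forms of the UPF3B, UPF1, SMG1 and SMG5 exons and of UPF3A exon 7, and this limits what their ψ can show.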
